A study of Homo sapiens with 12 samples.

Results

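The response to transforming growth factor β1 (TGF-β1) given alone was taken from 3 libraries of TGF-β1-treated cells against 3 libraries of untreated control cells, out of 12 RNA sequencing libraries in the series. The comparison covers the 13469 genes, of 28395 in the count table, that passed a filter on low counts. The cells were BEAS-2B, a line of human bronchial epithelial cells that was immortalised with viral genes and is grown as an adherent culture. Both groups spent 24 h in medium free of serum and steroid. The control group then received no agent, and the TGF-β1 group received 40 pM TGF-β1 for 24 h. The other 6 libraries, 3 with dexamethasone (30 nM, 4 h) and 3 with TGF-β1 followed by dexamethasone, shared the fit so that the spread between libraries was estimated over all 12. Both groups compared here are free of dexamethasone. The series calls its libraries biological triplicates. The sources used here do not give the vehicle, or when the TGF-β1 cells were harvested relative to those given dexamethasone for a further 4 h. The growth protocol names A549 cells, a lung carcinoma line, whereas the source, cell type and treatment fields name BEAS-2B.

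TGF-β1 is secreted in a latent complex, is freed by integrins and proteases, and binds a pair of receptor kinases, TGFBR2 and TGFBR1. These phosphorylate SMAD2 and SMAD3, which enter the nucleus with SMAD4 and act on genes together with other factors, among them genes for inhibitors of the same pathway. In airway epithelium the factor is known for matrix production, for growth arrest and for epithelial to mesenchymal transition, in which cells loosen their junctions and take on features of fibroblasts.

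Levels below are CPM, the counts of a gene scaled to library sizes adjusted by the trimmed mean of M values (TMM), and a mean is given ± SD over the 3 libraries of a group. Each effect is a log2 fold change and its SE, the standard error, in an edgeR quasi-likelihood fit that had the replicate number as a block. A pair of values in brackets after a gene holds the log2 fold change and SE. A gene is said to rise or fall where its p, adjusted by Benjamini-Hochberg over the 13469 genes, was under 0.05. Total counts were 5861591 to 6599059 in replicates 1 and 2 and 18989865 to 19039860 in replicate 3, so replicate 3 fixes low values best. In a principal component analysis of the 6 libraries the leading component (72.6% of variance) split control from TGF-β1, and the next (13.3%) set replicate 2 of both groups apart from replicates 1 and 3. The 11 listed markers of bronchial epithelium all passed the filter, with summed levels of 2750 to 3340 CPM in control and 3190 to 4790 CPM with TGF-β1. Markers of airway secretory cells summed to 2.31 to 14.6 CPM in control and 0.875 to 2.01 CPM with TGF-β1, with SCGB3A1, SCGB3A2 and BPIFA1 at 0 reads in the 6 libraries, and those of ciliated cells to at most 4.49 CPM. Markers of alveolar type 2 and A549 cells summed to 23.6 to 49.8 CPM in control and 3.25 to 6.79 CPM with TGF-β1. Leukocyte markers summed to at most 22.4 CPM in control and 20.7 to 32.2 CPM with TGF-β1, where PTPRC, the pan-leukocyte surface marker, had 3 reads and 0 reads. Among those markers CSF1R, a growth factor receptor of macrophages, rose (3.06, SE 0.22) and CD14 fell (-1.63, SE 0.25). Fibroblast markers summed to 731 to 1060 CPM in control and 10200 to 12700 CPM with TGF-β1, most of it from COL1A1. Of the 12 listed, 6 passed the low-count filter, of which 5 rose and 1 fell, beside 24.6% and 25.5% of all genes. THY1 had 8740 reads over the control libraries and 11439 over the TGF-β1 libraries, and PDGFRB 1220 and 5554. DCN, LUM and DPT, which mark tissue fibroblasts, had 3, 2 and 0 reads over the control libraries and 2, 3 and 2 over the TGF-β1 libraries. Whether a change in cell number, in RNA per cell or in cell state underlies a difference cannot be told apart in bulk RNA.

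TGF-β1 changed 6741 of the 13469 genes (50.0%), 3308 higher (24.6%) and 3433 lower (25.5%). Counts for the gene lists below are to be read beside these shares. Most changes were small. The median size was 1.37-fold among genes that rose and 1.45-fold among those that fell, and 1778 and 1578 of them stayed under a log2 fold change of 0.5. A change of at least 2-fold was seen in 729 genes that rose (5.41%) and 801 that fell (5.95%), and 453 (3.36%) and 397 (2.95%) passed a test against 2-fold itself (edgeR's glmTreat). The upper tail was the longer one, with 51 genes at a log2 fold change of 4 or more and 18 at -4 or less. All 3 replicate pairs had the sign of the call in 3230 of the genes that rose and 3354 of those that fell. The fit had the replicate number as its block, so that agreement is not independent of the calls. Over all 13469 genes the groups did not overlap in 2983 with TGF-β1 higher (22.1%) and 3049 with TGF-β1 lower (22.6%). The 25 largest rises and 25 largest falls were named only where both conditions held, so neither is support for them. Without the replicate block 2186 genes rose and 2230 fell. With library size alone as the scale, the median of all genes moved from -0.01 to -0.219 and the calls were 1746 higher and 6200 lower, 22.0% higher in place of 49.1%. Directions below are therefore relative to the median gene, and a shift of all genes by that amount cannot be told apart from the scaling.

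**Figure D1:**
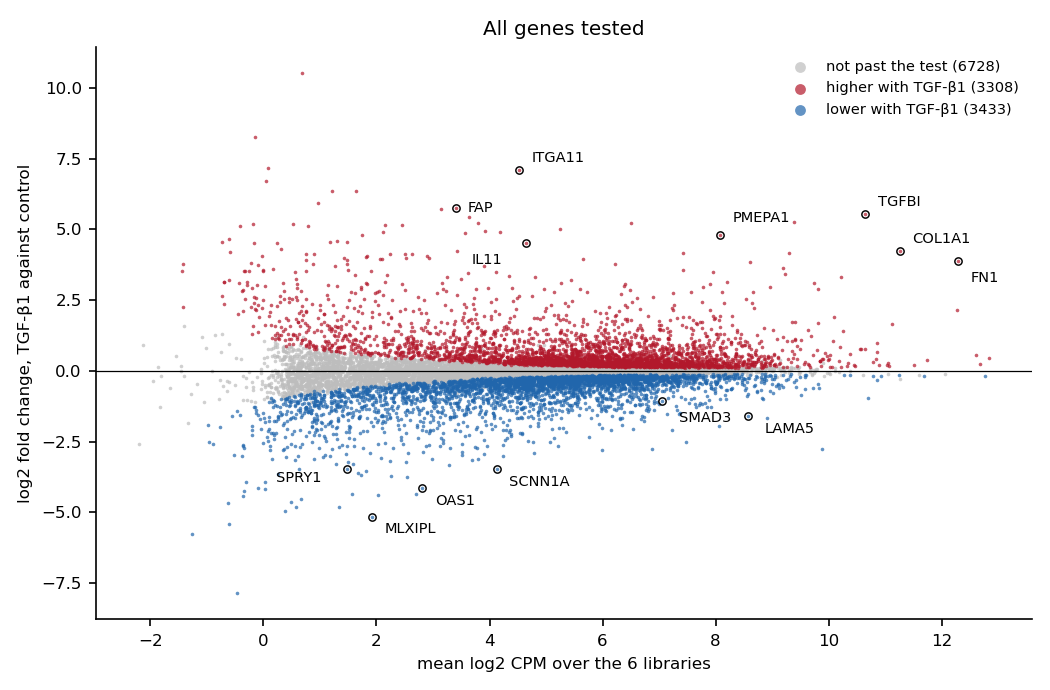
Log2 fold change of TGF-β1 against control (vertical axis) against the mean log2 CPM over the 6 libraries (horizontal axis) for the 13469 genes tested; each point is a gene, red where it rose, blue where it fell and grey where it did not pass the test. The 51 genes that rose by 4 or more lie at the top and include the abundant COL1A1, and the 18 that fell by as much include MLXIPL and OAS1.

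The ligands of the family changed apart from one another. Of 18 genes on the list, 12 passed the low-count filter, of which 9 rose, 2 fell and 1 did not pass the test, with a median log2 fold change of 1.23. TGFB1, which encodes TGF-β1 itself, was at 138, 126 and 138 CPM in the 3 control libraries and 535, 396 and 502 CPM in the 3 TGF-β1 libraries. Its 3 treated libraries lay above all control libraries (log2 fold change 1.82 with SE 0.08, adjusted p = 3.7e-10). TGFB2, the second TGF-β isoform, rose less (0.85, SE 0.07), and TGFB3, the third isoform, fell (-1.02, SE 0.14). GDF6, a ligand of the bone morphogenetic protein (BMP) branch, was at 20.5, 20.3 and 21.9 CPM in control and 342, 146 and 372 CPM with TGF-β1, so that the groups were far apart (log2 fold change 3.78 with SE 0.25, adjusted p = 1.84e-05). BMP4, a BMP ligand, went the other way, at 158, 225 and 133 CPM in control and 19.6, 36 and 18.5 CPM with TGF-β1 (log2 fold change -2.81 with SE 0.08, adjusted p = 2.14e-17). INHBA, which encodes the activin A subunit, also rose (2.54, SE 0.37). Among secreted antagonists 4 of 7 rose and 1 fell (median log2 fold change 0.56). GREM1 rose from 124 ± 31.7 to 666 ± 129.5 CPM and NOG, which like it binds BMPs, rose from 39.9 ± 14.4 to 115 ± 13.7 CPM, as did FSTL3, an activin-binding protein (2.42, SE 0.12). Without replicate 1 of every group 2 antagonists rose in place of 4.

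Genes on the list of TGF-β latency and activation rose for the most part. The 12 genes on the list passed the low-count filter, of which 10 rose, 2 fell and 0 did not pass the test, with a median log2 fold change of 1.39. LTBP2, a microfibril protein of the latent TGF-β binding family, was at 102, 132 and 82.9 CPM in the 3 control libraries and 1713, 1103 and 1672 CPM in the 3 TGF-β1 libraries. It rose in every pair (log2 fold change 3.84 with SE 0.32, adjusted p = 7.73e-05). LTBP1 (2.88, SE 0.17), the integrin chain ITGAV that pulls latent TGF-β open (1.79, SE 0.06), its partner ITGB6 (1.36, SE 0.14), the proprotein convertase FURIN (1.42, SE 0.05) and the activator THBS1 (2.14, SE 0.26) rose as well. ITGB8, another partner of ITGAV in activation, fell from 77.2 ± 19 to 18.8 ± 3.64 CPM (log2 fold change -2.02 with SE 0.09, adjusted p = 1.2e-13), and NRROS, which anchors latent TGF-β on myeloid cells, fell at a low level (-2.21, SE 0.58). Of these 2 falls 1 was called without control replicate 3. The membrane anchor LRRC32 had 173 reads with TGF-β1 against 1 in control, a ratio of 195 with an exact counting interval of 34.5 to 7730. That interval pools the reads of each group and leaves out the spread between libraries.

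Receptors and SMADs moved in both directions. For the receptors 5 of 11 rose and 3 fell (median log2 fold change -0.03). TGFBR2, the ligand-binding receptor kinase, was at 362, 493 and 305 CPM in the 3 control libraries and 184, 205 and 185 CPM in the 3 TGF-β1 libraries. All treated libraries were below all control libraries, with a fall to about the same level in each (log2 fold change -0.98 with SE 0.10, adjusted p = 2.62e-05). TGFBR3, the co-receptor betaglycan, fell further (-2.09, SE 0.23), whereas TGFBR1, the signalling partner (0.52, SE 0.08), ACVR1 (0.74, SE 0.10), BMPR2 (0.82, SE 0.08) and the co-receptor ENG, or endoglin, rose (from 75.4 ± 5.47 to 232 ± 58.6 CPM). Without the block the adjusted p of TGFBR1 was 0.097. Among the SMADs 4 of 8 rose and 2 fell (median log2 fold change 0.06), beside 24.6% higher and 25.5% lower over all genes. SMAD3 fell (205, 167 and 205 CPM in control and 84.3, 114 and 80.3 CPM with TGF-β1; log2 fold change -1.07 with SE 0.15, adjusted p = 0.000615) and the inhibitors SMAD7 (3.1, SE 0.15) and SMAD6 (1.33, SE 0.19) rose. Of the feedback and corepressor genes 9 of 13 rose and 2 fell (median log2 fold change 0.48). PMEPA1, a membrane protein that holds SMADs away from the receptor, was at 61.7, 42.4 and 50.7 CPM in control and 1589.5, 1168 and 1539 CPM with TGF-β1 (log2 fold change 4.82 with SE 0.08, adjusted p = 2.81e-18). Its relative LDLRAD4 (4.11, SE 0.20), the corepressors SKIL (1.95, SE 0.08) and SKI (1.1, SE 0.12) and the ubiquitin ligases SMURF2 (0.97, SE 0.10) and SMURF1 (0.88, SE 0.06) rose. NEDD4L, a ubiquitin ligase that acts on activated SMADs, fell (-1.0, SE 0.07). With library size alone 2 SMADs rose and 3 fell, and 1 of the 2 feedback genes that fell was called without replicate 2 or 3 of either group.

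**Figure D2:**
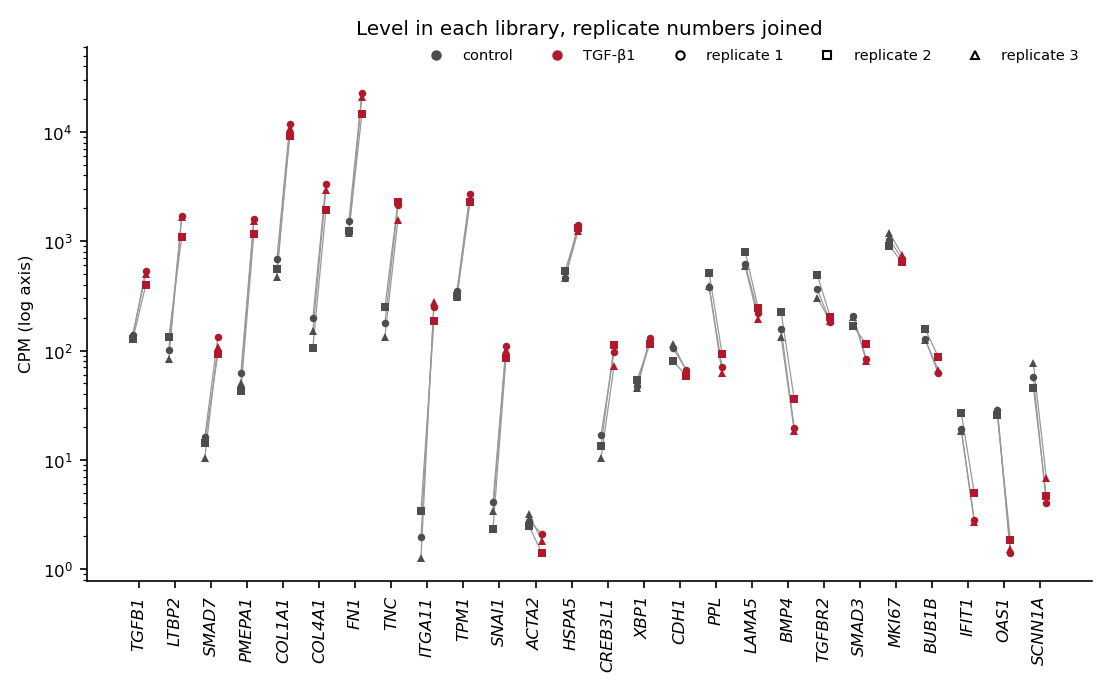
Level of 26 genes in each of the 6 libraries (CPM, log axis), control in grey and TGF-β1 in red, with symbols for the replicate number and a line between libraries of the same number. Within each gene shown the 3 treated libraries lie on 1 side of the 3 control libraries, above them from TGFB1 to SNAI1 and from HSPA5 to XBP1, and below them for ACTA2 and from CDH1 to SCNN1A. The genes were chosen with results of these data known. Over all genes tested the groups did not overlap for 22.1% with TGF-β1 higher and 22.6% with TGF-β1 lower.

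Genes known as direct SMAD targets were chosen for that role, so their direction is not independent of it. Of 24 genes on the list, 23 passed the low-count filter, of which 21 rose, 0 fell and 2 did not pass the test, with a median log2 fold change of 1.98, against a median of -0.01 over all genes. CDKN2B, an inhibitor of the G1 cyclin-dependent kinases, was at 81, 101 and 83 CPM in the 3 control libraries and 315, 381 and 306 CPM in the 3 TGF-β1 libraries. The lowest treated library stood above the highest control library (log2 fold change 1.92 with SE 0.06, adjusted p = 3.36e-16). BHLHE40, a circadian repressor (2.14, SE 0.07), and HMOX1, haem oxygenase (1.83, SE 0.07), rose as well. TSPAN2, a tetraspanin, rose from a low level, 2.27, 1.24 and 1.01 CPM in control and 28.6, 19.2 and 23.9 CPM with TGF-β1 (4.14, SE 0.23). SERPINE2, a protease inhibitor of the plasminogen list, rose from 42.6 ± 16.3 to 743 ± 195 CPM (log2 fold change 4.18 with SE 0.41, adjusted p = 0.000171). CDKN1A, which encodes p21, rose by a smaller amount (0.66, SE 0.13).

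Collagen genes rose for the most part, among them abundant ones. Of 31 genes on the list, 28 passed the low-count filter, of which 21 rose, 4 fell and 3 did not pass the test, with a median log2 fold change of 1.65. COL1A1, the alpha 1 chain of collagen I, was at 688, 559 and 471 CPM in the 3 control libraries and 11789, 9238 and 10821 CPM in the 3 TGF-β1 libraries. COL1A2, its partner chain, was at 8.64, 5.43 and 5.99 CPM in control and 245, 194 and 202 CPM with TGF-β1. Both rose (log2 fold change 4.22 with SE 0.18, adjusted p = 1.39e-06 for COL1A1 and log2 fold change 5.02 with SE 0.08, adjusted p = 5.88e-21 for COL1A2). Of the chains of collagen V, which starts fibrils, COL5A1 rose from 377 ± 39.5 to 3793 ± 689 CPM and COL5A2 rose from 118 ± 23.6 to 381 ± 35.5 CPM, while COL5A3 did not pass the test (adjusted p = 0.0578), although it did under several alternatives as a fall. COL3A1, the chain of collagen III that fibroblasts make, did not pass the low-count filter, with 6 reads in control and 17 with TGF-β1. The chains of collagen IV, the network of the basement membrane, split by pair of neighbouring genes. COL4A1 (4.18, SE 0.06) and COL4A2 (3.11, SE 0.05), which share a promoter region on chromosome 13, rose, and so did COL4A3 (2.27, SE 0.23) and COL4A4 (2.93, SE 0.13). COL4A5 (-0.53, SE 0.07) and COL4A6 (-0.89, SE 0.09) fell. Collagen VI split within 1 trimer, with COL6A3 at 1.67, 1.55 and 0.725 CPM in control and 63.6, 39.4 and 63.1 CPM with TGF-β1 (5.71, SE 0.27) against COL6A2 (0.62, SE 0.07) and COL6A1 (0.31, SE 0.10). The calls of COL6A2 and COL6A1 were lost without the block (adjusted p = 0.187 and 0.409), and that of COL6A1 also with library size alone (log2 fold change 0.1, adjusted p = 0.521), without control or TGF-β1 replicate 2 or 3 and without replicate 3 of every group. COL7A1, the anchoring fibril under the epidermis and airway epithelium (2.78, SE 0.14), and COL27A1, a fibrillar collagen (2.88, SE 0.15), rose, while COL8A1, a short-chain collagen, fell (-2.03, SE 0.08).

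Enzymes that make collagen rose together with its chains. Of 31 genes on the list, 28 passed the low-count filter, of which 24 rose, 1 fell and 3 did not pass the test, with a median log2 fold change of 0.96. The prolyl 4-hydroxylase subunit P4HA3 was at 5, 5.28 and 5.02 CPM in control and 59.4, 49.2 and 60.3 CPM with TGF-β1. It rose more than P4HA2 (1.95, SE 0.08) and P4HA1 (1.73, SE 0.25) by point estimate, a difference that was not tested. The lysyl hydroxylases PLOD1 (1.14, SE 0.13), PLOD2 (1.06, SE 0.11) and PLOD3 (0.66, SE 0.05), the collagen chaperone SERPINH1, or HSP47 (1.3, SE 0.11), and the procollagen peptidases BMP1 (1.03, SE 0.05) and ADAMTS2 (1.4, SE 0.22) rose. LOX, the cross-linking lysyl oxidase, rose from 161 ± 29.4 to 481 ± 181 CPM (log2 fold change 1.56 with SE 0.22, adjusted p = 0.00123), as did its relative LOXL4 (0.70, SE 0.16), whose call was lost without replicate 3 of every group (adjusted p = 0.083). P3H2, a prolyl 3-hydroxylase, was the member that fell (-0.56, SE 0.12).

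Matrix glycoproteins ranged from falls to large rises. Of 45 genes on the list, 39 passed the low-count filter, of which 28 rose, 5 fell and 6 did not pass the test, with a median log2 fold change of 0.93. FN1, or fibronectin, the adhesive scaffold on which collagen is laid down, was at 1537, 1245 and 1194 CPM in the 3 control libraries and 22923, 14577 and 21018 CPM in the 3 TGF-β1 libraries. TNC, tenascin C, was at 178, 249 and 134 CPM in control and 2157, 2265 and 1567 CPM with TGF-β1. Both groups were fully separated for each gene (log2 fold change 3.87 with SE 0.20, adjusted p = 3.92e-06 for FN1 and log2 fold change 3.44 with SE 0.13, adjusted p = 7.37e-08 for TNC). Genes of elastic fibres rose from low control levels, with MFAP2, a microfibril protein, at 2.58, 2.64 and 1.74 CPM in control and 76.4, 75.9 and 82.3 CPM with TGF-β1 (5.23, SE 0.13), FBLN5, which joins elastin to cells (4.24, SE 0.43), and ELN, elastin itself (5.14, SE 0.92). The microfibril gene FBN2 (1.08, SE 0.13) rose more than FBN1 (0.47, SE 0.06) by point estimate. Laminin chains, which build the basement membrane, went separate ways. LAMB3 rose from 77.2 ± 17.2 to 147 ± 12.2 CPM, whereas LAMA3 was at 0.06 (adjusted p = 0.651) and at -0.14 with library size alone, and passed the test as a rise without replicate 2 of every group (0.17, adjusted p = 0.0468). LAMA5, the alpha chain of the main laminins of the adult airway, was at 619, 805 and 588 CPM in control and 218, 245 and 194 CPM with TGF-β1, below control in each pair (log2 fold change -1.6 with SE 0.08, adjusted p = 2.68e-10). LAMB2 (-0.25, SE 0.05) fell and LAMC1 (0.87, SE 0.08) rose.

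Proteoglycans divided by member. On that list 9 of 19 rose and 8 fell (median log2 fold change 0.44), and 5 fell when genes under a mean log2 CPM of 1 were left out. BGN, biglycan, a small leucine-rich proteoglycan, rose from 188 ± 64.5 to 1418 ± 339 CPM (log2 fold change 2.95 with SE 0.11, adjusted p = 2.38e-08), and VCAN, the large hyaluronan-binding versican, rose from 62.2 ± 29.2 to 406 ± 129 CPM (log2 fold change 2.77 with SE 0.19, adjusted p = 2.23e-05). HSPG2, the basement membrane proteoglycan perlecan, fell from 335 ± 31.6 to 153 ± 9.44 CPM (log2 fold change -1.13 with SE 0.06, adjusted p = 3.87e-11), as did the syndecan SDC4 (-0.62, SE 0.09) and the glypican GPC1 (-0.50, SE 0.06), while SDC1 rose (1.21, SE 0.07). Enzymes that build the sugar chains of proteoglycans rose more often than they fell, 22 of 40 rose and 5 fell (median log2 fold change 0.28). CHST11, a chondroitin 4-O-sulfotransferase, was at 9.55, 9.47 and 8.45 CPM in control and 96.9, 59.4 and 101 CPM with TGF-β1, and XYLT1, which starts the chains, was low in control (3.52, SE 0.52). NDST1, a heparan N-sulfotransferase, rose from 374 ± 31.9 to 1221 ± 80.8 CPM, and HAS3, a hyaluronan synthase, fell (-1.09, SE 0.20). The 5 falls among these enzymes became 2 without the block, 3 without control replicate 1 and 8 with library size alone.

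The 101 listed genes of collagens, glycoproteins and proteoglycans together took 1.76%, 1.75% and 1.49% of raw counts in the control libraries and 8.66%, 7.03% and 7.87% in the TGF-β1 libraries. The treated libraries were all far above the control libraries. Such a share lowers the raw share of other genes, which the TMM factors (1.09 to 1.10 in control and 0.926 to 0.982 with TGF-β1) are meant to correct.

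**Figure D3:**
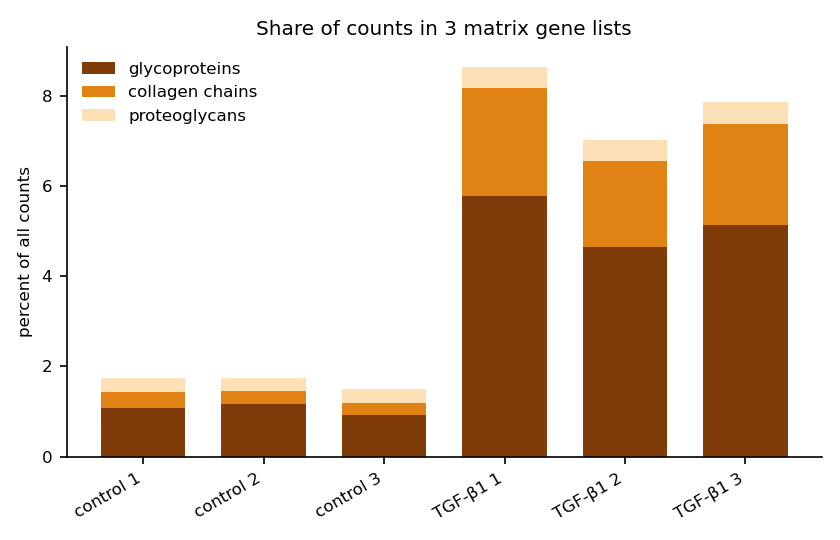
Share of all raw counts (percent, vertical axis from 0) in the lists of glycoproteins, collagen chains and proteoglycans, stacked for each of the 6 libraries. The 3 control libraries reach 1.49% to 1.76% and the 3 TGF-β1 libraries 7.03% to 8.66%, with glycoproteins the largest part in each.

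Proteases that cut the matrix and their inhibitors rose side by side. Of 37 genes on the list, 33 passed the low-count filter, of which 20 rose, 4 fell and 9 did not pass the test, with a median log2 fold change of 0.70. MMP2, gelatinase A, was at 128, 289 and 101 CPM in control and 870.2, 899.9 and 912 CPM with TGF-β1. It rose in each pair (log2 fold change 2.53 with SE 0.40, adjusted p = 0.0019), as did MMP14, its membrane-bound activator (1.73, SE 0.15). MMP9, gelatinase B, rose from a low level (3.92, SE 0.29). MMP13, collagenase 3, had 0 reads in control and 114 with TGF-β1, at least 42.8-fold higher when the control group is set to the floor of 3 reads over its libraries. ADAM19 (3.08, SE 0.06) and ADAM12 (2.79, SE 0.18), membrane-bound proteases, rose, and so did the inhibitors TIMP2 (0.77, SE 0.07) and TIMP1 (0.60, SE 0.09). MMP15 (-1.32, SE 0.20) and ADAM15 (-0.98, SE 0.06) fell, and with library size alone 8 members fell in place of 4. In the plasminogen and coagulation list 9 of 16 rose and 3 fell (median log2 fold change 0.55). The activator PLAT (1.39, SE 0.13) and the receptor PLAUR (1.33, SE 0.14) rose, while TFPI, the inhibitor of the tissue factor pathway, fell (-1.33, SE 0.07). Only 1 of the 3 falls on that list was called without control replicate 3, TGF-β1 replicate 1 or TGF-β1 replicate 2.

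Integrin chains, the receptors that hold cells to these proteins, followed. Of 21 genes on the list, 17 passed the low-count filter, of which 10 rose, 3 fell and 4 did not pass the test, with a median log2 fold change of 0.72. ITGA11, a collagen receptor chain of fibroblasts, was at 1.97, 3.41 and 1.26 CPM in the 3 control libraries and 251, 185 and 279 CPM in the 3 TGF-β1 libraries. It had the largest rise among the 2500 genes eligible under the naming rule (log2 fold change 7.1 with SE 0.30, adjusted p = 1.08e-06). ITGA5, the fibronectin receptor chain, rose from 114 ± 10.5 to 502 ± 82.2 CPM, with ITGB1 (1.42, SE 0.10) and ITGB3 (1.44, SE 0.12). ITGA6 and ITGB4, which form the hemidesmosome receptor for laminin, were at -0.08 (adjusted p = 0.615) and -0.15 (adjusted p = 0.171). ITGB4 was called as a fall with library size alone (-0.36, adjusted p = 0.000942), without the low-count filter (adjusted p = 0.0304) and without TGF-β1 replicate 1 (adjusted p = 0.0301). The chains that fell numbered 5 without TGF-β1 replicate 1 or with library size alone.

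The contractile apparatus changed in part. Of 51 genes on the list, 48 passed the low-count filter, of which 31 rose, 8 fell and 9 did not pass the test, with a median log2 fold change of 0.35. Without the replicate block 22 rose and 4 fell, and with library size alone as the scale 24 rose and 17 fell. TPM1, a tropomyosin of stress fibres, was at 352, 318 and 309 CPM in the 3 control libraries and 2731, 2280.3 and 2353 CPM in the 3 TGF-β1 libraries. TAGLN, or transgelin, rose from 77.7 ± 33.5 to 829.7 ± 56.1 CPM (log2 fold change 3.5 with SE 0.28, adjusted p = 5.98e-05), as did the myosin light chain MYL9 (1.0, SE 0.07), the actin cross-linkers ACTN1 (0.84, SE 0.10) and PALLD (1.62, SE 0.08) and the smooth muscle calponin CNN1 from a low level (3.49, SE 0.39). ACTA2, the smooth muscle actin used as a marker of myofibroblasts, was at 2.73, 2.48 and 3.19 CPM in control and 2.1, 1.39 and 1.79 CPM with TGF-β1. It fell within a very low range (log2 fold change -0.72 with SE 0.26, adjusted p = 0.0265), and the call was lost without the block (adjusted p = 0.08), without control replicate 2 (adjusted p = 0.057) or 3 (adjusted p = 0.118), without TGF-β1 replicate 3 (adjusted p = 0.25), without replicate 1, 2 or 3 of every group (adjusted p = 0.0567, 0.0614 and 0.27), without the low-count filter (adjusted p = 0.056) and in DESeq2 (adjusted p = 0.112). SORBS3, a vinculin-binding adaptor (-1.21, SE 0.07), and CSRP1 (-0.97, SE 0.09) fell.

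Transcription factors of epithelial to mesenchymal transition rose for the most part, 11 of 15 rose and 1 fell (median log2 fold change 0.61). SNAI1, a repressor of epithelial genes, was at 4.09, 2.33 and 3.43 CPM in the 3 control libraries and 109, 85.5 and 101 CPM in the 3 TGF-β1 libraries. Its relative SNAI2 was at 20.6, 22.2 and 12.4 CPM in control and 72.9, 82.3 and 55.2 CPM with TGF-β1. Both rose (log2 fold change 4.91 with SE 0.11, adjusted p = 5.54e-19 for SNAI1 and log2 fold change 1.98 with SE 0.08, adjusted p = 5.42e-14 for SNAI2). TCF4 (2.01, SE 0.11), SOX4 (1.52, SE 0.06) and HMGA2 (1.43, SE 0.14) rose, ZEB1 was at -0.12 (adjusted p = 0.327; -0.34 with adjusted p = 0.00801 with library size alone) and TWIST1 fell (-0.85, SE 0.12), with 3 falls on the list with library size alone. Of the mesenchymal markers 10 of 12 rose and 2 fell (median log2 fold change 1.03). CDH2, N-cadherin, rose from 137 ± 8.13 to 275 ± 8.26 CPM (log2 fold change 1.01 with SE 0.07, adjusted p = 2.09e-09), PDGFRB rose (2.34, SE 0.06), and VIM, vimentin, which was abundant in control, rose by less (0.42, SE 0.05). NCAM1 (-1.9, SE 0.31) and S100A4 (-1.4, SE 0.23) fell.

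Epithelial junction genes fell more often than they rose. Of 54 genes on the list, 52 passed the low-count filter, of which 8 rose, 27 fell and 17 did not pass the test, with a median log2 fold change of -0.26. The rises numbered 8, and 5 with library size alone as the scale, 4 without the block and 5 without replicate 1 of every group. CDH1, E-cadherin, was at 104, 80.6 and 115 CPM in the 3 control libraries and 66.8, 58.6 and 65.6 CPM in the 3 TGF-β1 libraries. All treated libraries were below all control libraries, and the fall was less than 2-fold (log2 fold change -0.66 with SE 0.09, adjusted p = 1.08e-05). PPL, periplakin, which links keratin to desmosomes, was at 384, 516 and 386 CPM in control and 69.9, 92.6 and 61.9 CPM with TGF-β1, a larger fall (log2 fold change -2.53 with SE 0.06, adjusted p = 8.21e-18). Tight junction genes that fell were CLDN1 (-1.74, SE 0.15), OCLN (-1.68, SE 0.15) and CGN (-0.94, SE 0.10), and polarity genes were PARD6B (-2.26, SE 0.22) and LLGL2 (-1.38, SE 0.15). In the desmosome PKP2 fell (-1.97, SE 0.10) while DSG2 rose (0.63, SE 0.06), and DSP was at -0.02 (adjusted p = 0.762), or -0.23 (adjusted p = 0.00216) with library size alone. The splicing factor ESRP2 fell (-1.13, SE 0.09). Among keratins 10 of 17 rose and 5 fell (median log2 fold change 0.77), with 6 risen without the block. Keratins of simple epithelia and of basal epithelia each went both ways. Of the former KRT18 (-1.27, SE 0.06) and KRT19 (-1.64, SE 0.09) fell, KRT7 rose (0.77, SE 0.05) and KRT8 was at -0.22 (adjusted p = 0.0509), although it passed as a fall under several alternatives, among them library size alone (-0.43, adjusted p = 0.000234) and DESeq2 (adjusted p = 0.0469). Of the latter KRT14 (2.24, SE 0.09) and KRT17 (1.7, SE 0.06) rose and KRT15 fell (-3.2, SE 0.21). These keratin genes have similar copies, so how shared reads were split is uncertain. Of transcription factors of the airway lineage 2 of 11 rose and 7 fell (median log2 fold change -0.55). FOXA1, a pioneer factor of endoderm, was at 30.5, 42.8 and 44.5 CPM in control and 4.73, 6.03 and 3.93 CPM with TGF-β1 (log2 fold change -3.12 with SE 0.15, adjusted p = 1.37e-12), and ELF3, an epithelial ETS factor of the junction list, was at 37.6, 35.4 and 41.5 CPM in control and 3.15, 4.95 and 4.6 CPM with TGF-β1 (log2 fold change -3.17 with SE 0.14, adjusted p = 1.11e-13). TBX3 rose (1.98, SE 0.08).

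**Figure D4:**
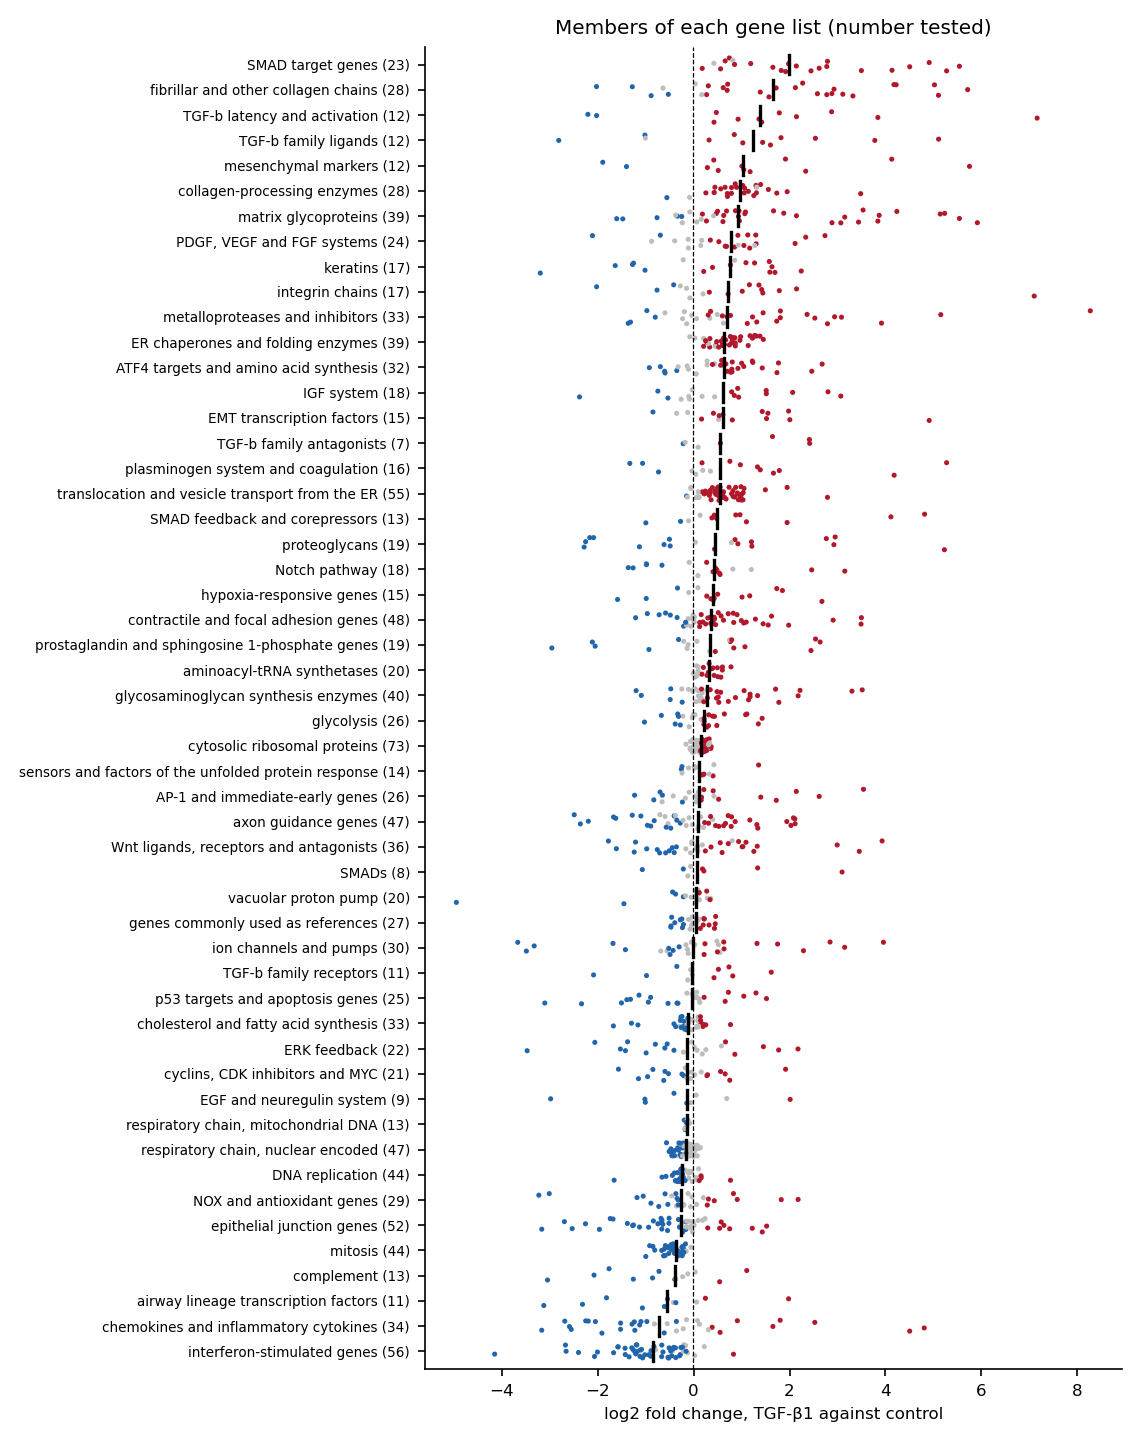
Log2 fold change of TGF-β1 against control (horizontal axis) for each tested member of 52 gene lists, red where the member rose, blue where it fell and grey where it did not pass the test; the black bar is the list's median and the dashed line the median of all genes (-0.01). Some genes stand in more than 1 list. SMAD target genes (1.98) and collagen chains (1.65) have the highest medians of the lists shown, and interferon-stimulated genes (-0.85) the lowest.

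The secretory route through the endoplasmic reticulum (ER) rose almost throughout. The 39 genes on the list passed the low-count filter, of which 34 rose, 0 fell and 5 did not pass the test, with a median log2 fold change of 0.64. The count that rose was 30 with library size alone as the scale. HSPA5, the ER chaperone BiP, was at 457, 531 and 458 CPM in the 3 control libraries and 1405, 1316 and 1237 CPM in the 3 TGF-β1 libraries. The groups were fully separated (log2 fold change 1.45 with SE 0.07, adjusted p = 5.7e-11). HSP90B1 (1.23, SE 0.06), CALR (0.97, SE 0.05), HYOU1 (1.27, SE 0.06) and the disulfide isomerases PDIA3 (1.23, SE 0.07), PDIA4 (1.18, SE 0.05) and PDIA5 (1.38, SE 0.11) rose. Genes of entry into the ER and of vesicle transport out of it rose as well. The 55 genes on the list passed the low-count filter, of which 46 rose, 1 fell and 8 did not pass the test, with a median log2 fold change of 0.55. The translocon gene SEC61A1 (0.99, SE 0.05), the coat gene SEC24D (1.5, SE 0.10), known for the export of procollagen, and the retrieval receptor KDELR3 (1.95, SE 0.09) rose. CREB3L1, a membrane-bound factor that acts on collagen and transport genes, was at 17, 13.3 and 10.4 CPM in control and 96.5, 111 and 72.5 CPM with TGF-β1 (log2 fold change 2.79 with SE 0.10, adjusted p = 4.9e-14). The sensors of the unfolded protein response moved little beside these genes, 4 of 14 rose and 2 fell (median log2 fold change 0.11), or 2 rose and 4 fell with library size alone. XBP1, the factor spliced by IRE1, rose from 49 ± 4.64 to 124 ± 7.63 CPM (log2 fold change 1.35 with SE 0.10, adjusted p = 1.3e-07).

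The ER stress motif, CCAAT and CCACG with 9 free bases between them, was searched on both strands of RefSeq promoter windows of GRCh38.p14 (250 bases before to 50 after the first listed start of a gene). The windows covered 10659 of the genes tested. It was found in 14 of them (0.131%) and in 5 of the 32 windows of ER folding genes that rose (15.6%), and these 5 are listed here. Because the list was chosen for its role in ER folding, this share describes the list and not the response to TGF-β1. The 60-base stretches upstream of the start show the match in capitals, its free positions included.
HSPA5: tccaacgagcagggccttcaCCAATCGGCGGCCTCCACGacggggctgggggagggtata
HSP90B1: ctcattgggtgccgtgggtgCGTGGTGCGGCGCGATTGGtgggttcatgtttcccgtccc
CALR: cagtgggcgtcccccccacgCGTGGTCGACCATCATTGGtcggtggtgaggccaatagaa
CRELD2: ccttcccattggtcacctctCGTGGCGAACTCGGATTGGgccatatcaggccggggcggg
CANX: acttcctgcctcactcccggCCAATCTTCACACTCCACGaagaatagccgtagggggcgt
They lie at chr9:125241370-125241429 (minus strand) for HSPA5, chr12:103930301-103930360 (plus strand) for HSP90B1, chr19:12938364-12938423 (plus strand) for CALR, chr22:49918534-49918593 (plus strand) for CRELD2 and chr5:179698758-179698817 (plus strand) for CANX, each upstream of the annotated start. Besides HSPA5, HSP90B1 and CALR above, CRELD2 (0.60, SE 0.06) and CANX, calnexin (0.60, SE 0.05), rose. A match describes the letters and is not a measured binding site.

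Genes of amino acid supply rose as well. On the list of ATF4 targets and amino acid synthesis 20 of 32 rose and 5 fell (median log2 fold change 0.64). PYCR1, the last enzyme of proline synthesis, was at 36.7, 48.6 and 33.1 CPM in control and 142, 145 and 115 CPM with TGF-β1 (log2 fold change 1.77 with SE 0.08, adjusted p = 6.95e-12), and ALDH18A1, an earlier enzyme of the same route, rose (0.60, SE 0.07). The serine and glycine genes PHGDH (0.56, SE 0.08), PSAT1 (1.0, SE 0.14) and SHMT2 (0.80, SE 0.05), the folate enzyme ALDH1L2 (2.68, SE 0.14) and asparagine synthetase ASNS (1.43, SE 0.20) rose, and the cytosolic SHMT1 fell (-0.92, SE 0.07). The transcription factor ATF4 itself rose (0.40, SE 0.05). Without the block 18 of the list rose and 3 fell. Of 20 aminoacyl-tRNA synthetases tested 14 rose and 0 fell (median log2 fold change 0.31), and 9 rose and 3 fell with library size alone as the scale. GARS1, which charges glycine, had the largest rise among them (0.78, SE 0.06).

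In energy metabolism the list medians were small and the counts of calls depended on the scale, while some single genes changed by 2-fold or more. On the glycolysis list 14 of 26 rose and 6 fell (median log2 fold change 0.22), but 7 rose and 11 fell with library size alone, 6 rose and 3 fell without the block, and 8 rose without replicate 3 and 9 without replicate 1 of every group. LDHA, lactate dehydrogenase A, rose from 501 ± 52 to 1058 ± 104 CPM (log2 fold change 1.08 with SE 0.11, adjusted p = 5.5e-05), as did the regulators PFKFB3 (1.35, SE 0.07) and PFKFB4 (1.43, SE 0.11), and ENO2 fell (-1.03, SE 0.14). Of the nuclear genes of the respiratory chain 21 of 47 fell and 0 rose (median log2 fold change -0.17). That count was 40 with library size alone, 12 without the block, 11 without control replicate 3 or TGF-β1 replicate 3, and 7 and 8 without replicate 1 and replicate 3 of every group. ATP5F1B, the catalytic subunit of ATP synthase, fell from 712 ± 110.3 to 479 ± 27.4 CPM (log2 fold change -0.57 with SE 0.12, adjusted p = 0.00586). Of the 13 genes of mitochondrial DNA 4 fell, and this count ranged from 0 to 13 when single libraries or replicate numbers were left out. Of 73 cytosolic ribosomal protein genes 34 rose and 0 fell (median log2 fold change 0.16), but 2 rose and 14 fell with library size alone, 7 rose without the block and 21 without control replicate 1, and reads of these genes may be shared with pseudogenes. In the cholesterol and fatty acid list 7 of 33 rose and 15 fell (median log2 fold change -0.12), but 1 rose and 23 fell with library size alone and 2 rose and 6 fell without the block, 7 fell without control replicate 3 or replicate 3 of every group, and 3 rose without control replicate 1 or control replicate 2. SCD, stearoyl-CoA desaturase, rose (0.77, SE 0.05) and ELOVL6, a fatty acid elongase, fell (-1.3, SE 0.08). Of the hypoxia-responsive genes 10 of 15 rose and 3 fell (median log2 fold change 0.41), with 6 risen without control or TGF-β1 replicate 3 or without the block. EPAS1, which encodes HIF-2α, fell (-0.99, SE 0.05).

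Genes of cell division fell by modest amounts. The 44 genes on the list passed the low-count filter, of which 0 rose, 42 fell and 2 did not pass the test, with a median log2 fold change of -0.38. Without the block the count that fell was 28. MKI67, the proliferation marker Ki-67, was at 1037, 912 and 1197 CPM in the 3 control libraries and 691, 639 and 749.9 CPM in the 3 TGF-β1 libraries. Every treated library was below every control library (log2 fold change -0.59 with SE 0.05, adjusted p = 3.02e-09). BUB1B, a checkpoint kinase of the spindle, was at 126, 156 and 125 CPM in control and 61.7, 87.8 and 66.5 CPM with TGF-β1 (log2 fold change -0.92 with SE 0.06, adjusted p = 1.81e-11). NUF2 of the kinetochore (-1.0, SE 0.12), ECT2 of cytokinesis (-0.85, SE 0.06), CDK1 (-0.54, SE 0.06) and TOP2A (-0.52, SE 0.05) fell as well. On the DNA replication list 4 of 44 rose and 29 fell (median log2 fold change -0.24), 17 fell without the block, and the 4 rises became 1 without control replicate 1 and 2 without control replicate 2, TGF-β1 replicate 2 or TGF-β1 replicate 3. MCM2 of the replicative helicase fell (-0.34, SE 0.05), RRM2 of ribonucleotide reductase fell (-0.66, SE 0.05), and CCNE1, cyclin E1, rose (0.77, SE 0.13). Among cyclins and inhibitors CCND2 (-0.96, SE 0.09) and CCND1 (-0.52, SE 0.08) fell, both short of the threshold without the block (adjusted p = 0.369 and 0.064). CDKN2A rose (0.75, SE 0.05) along with CDKN2B, while the inhibitors CDKN1B (-0.62, SE 0.08) and CDKN2C (-0.85, SE 0.06) fell.

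Promoters of mitosis genes share a short element, TTTGAA, known as the cell cycle homology region. Searched on both strands, it was found in 1010 of 10659 windows (9.48%) and in 27 of the 36 windows of mitosis genes that fell (75%). Only the bases before the start gave 8.19% and 58.3%. Because the list was chosen for its role in mitosis, this share describes the list and not the response to TGF-β1. The stretches of 4 members that fell show the element in capitals.
BUB1B: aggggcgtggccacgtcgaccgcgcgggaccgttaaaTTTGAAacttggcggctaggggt
MKI67: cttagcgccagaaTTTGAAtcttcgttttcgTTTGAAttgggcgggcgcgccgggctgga
CCNB2: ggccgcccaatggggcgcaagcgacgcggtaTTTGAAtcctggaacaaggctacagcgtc
HMMR: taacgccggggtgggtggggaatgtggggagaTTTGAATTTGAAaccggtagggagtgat
They are the 60 bases before the start, at chr15:40161009-40161068 (plus strand) for BUB1B, chr10:128126424-128126483 (minus strand) for MKI67, chr15:59105086-59105145 (plus strand) for CCNB2 and chr5:163460572-163460631 (plus strand) for HMMR in GRCh38.p14. MKI67 and HMMR each hold 2 copies. CCNB2, cyclin B2 (-0.34, SE 0.06), and HMMR, a spindle protein (-0.81, SE 0.08), fell along with the other 2 genes.

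Interferon-stimulated genes fell for the most part. Of 60 genes on the list, 56 passed the low-count filter, of which 1 rose, 46 fell and 9 did not pass the test, with a median log2 fold change of -0.85. OAS1, which makes the messenger that activates RNase L, was at 28.8, 25.9 and 28.6 CPM in the 3 control libraries and 1.4, 1.86 and 1.51 CPM in the 3 TGF-β1 libraries. IFIT1, which binds viral RNA caps, was at 19.1, 26.9 and 18.4 CPM in control and 2.8, 4.95 and 2.69 CPM with TGF-β1. Both genes fell (log2 fold change -4.15 with SE 0.16, adjusted p = 8.82e-15 for OAS1 and log2 fold change -2.66 with SE 0.17, adjusted p = 2.82e-11 for IFIT1). The RNA sensors IFIH1, or MDA5 (-2.01, SE 0.19), and RIGI (-0.67, SE 0.15), and the transporter TAP1 (-1.29, SE 0.08) and immunoproteasome subunits PSMB8 (-1.12, SE 0.07) and PSMB9 (-1.58, SE 0.10) of antigen presentation, fell. Of the class I genes B2M fell from 1053 ± 136 to 768 ± 118 CPM, and HLA-B (-0.42, SE 0.05) and HLA-C (-0.29, SE 0.05) fell by less. HLA genes are similar in sequence, so how their shared reads were split is uncertain. Among factors that carry the interferon signal STAT2 fell little (-0.28, SE 0.05), with an adjusted p of 0.058 without the block, while IRF9 was at 0.02 (adjusted p = 0.848) and at -0.19 with library size alone and IRF1 fell (-0.94, SE 0.09). IFI44L was the member that rose, at 3.18, 4.66 and 4.4 CPM in control and 5.78, 5.41 and 9.25 CPM with TGF-β1 (0.83, SE 0.20), a call that was lost without control replicate 3, TGF-β1 replicate 3 or replicate 3 of every group.

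**Figure D5:**
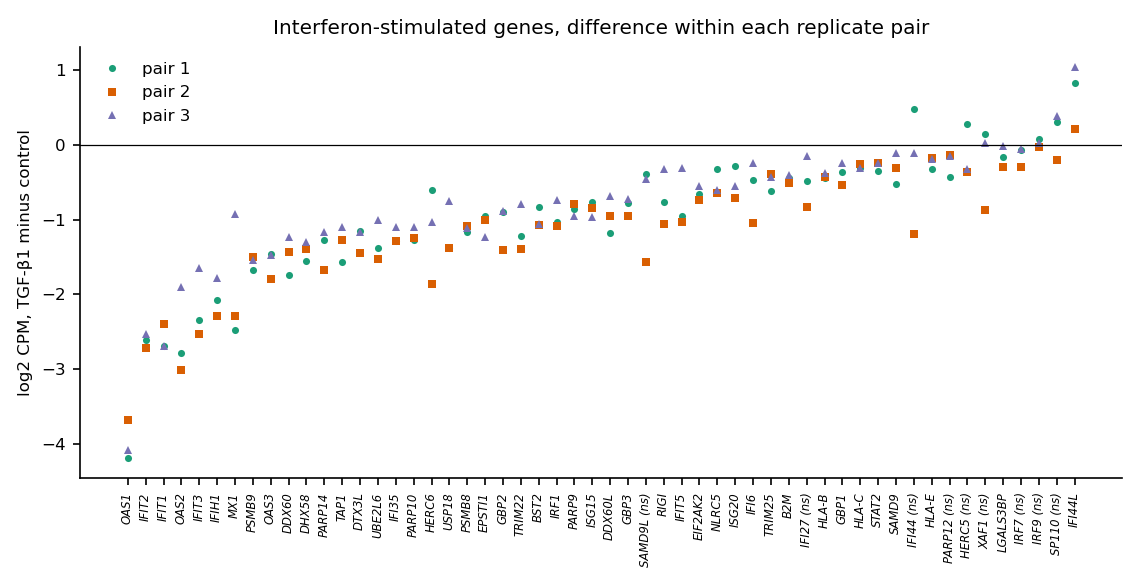
Difference in log2 CPM (TGF-β1 minus control, vertical axis) within each of the 3 replicate pairs for 54 of the 56 interferon-stimulated genes tested, ordered by fold change; "ns" marks genes that did not pass the test. From OAS1 to GBP3 the 3 pairs lie below 0 for each gene, and at the right end IFI44L lies above 0 in all 3.

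The interferon response element was searched on both strands of the same windows as TTTC, a pair of free bases and TTTC again. It was found in 288 of 10659 (2.70%), in 22 of the 35 windows of interferon-stimulated genes that fell (62.9%), in 36 of 571 windows of genes at least 2-fold lower (6.30%) and in 7 of 529 windows of genes at least 2-fold higher (1.32%). With only the bases before the start these shares were 2.29%, 51.4%, 5.25% and 1.13%. The list was chosen as interferon-stimulated, so its share is a property of the list. It also has 24 genes at least 2-fold lower, so the 571 windows overlap with it. The share among the 571 without listed genes was not computed. The stretches of 5 genes that fell are given with the element in capitals, which reads GAAA, a pair of free bases and GAAA where it lies on the other strand.
IFIT1: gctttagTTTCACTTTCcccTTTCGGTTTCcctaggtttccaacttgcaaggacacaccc
IFIT3: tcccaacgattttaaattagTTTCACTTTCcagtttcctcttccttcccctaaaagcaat
ISG15: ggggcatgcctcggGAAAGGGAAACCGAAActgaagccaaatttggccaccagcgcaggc
EPSTI1: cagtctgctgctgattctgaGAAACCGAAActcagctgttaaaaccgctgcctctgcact
IFIH1: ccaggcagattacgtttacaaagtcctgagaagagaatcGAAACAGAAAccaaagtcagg
They lie at chr10:89392500-89392559 (plus strand) for IFIT1, chr10:89327855-89327914 (plus strand) for IFIT3, chr1:1013370-1013429 (plus strand) for ISG15, chr13:42992252-42992311 (minus strand) for EPSTI1 and chr2:162318685-162318744 (minus strand) for IFIH1, all upstream of the annotated start. IFIT1 and ISG15 hold 2 matches in the stretch, which overlap in ISG15. Besides IFIT1 and IFIH1, IFIT3 (-2.07, SE 0.14), ISG15, a ubiquitin-like modifier (-0.89, SE 0.11), and EPSTI1 (-1.11, SE 0.12) fell. The SMAD element CAGACA, searched likewise, was in 1283 of 10659 windows (12%), in 17.4% of those of genes at least 2-fold higher and 10.5% of those of genes at least 2-fold lower. With only the bases before the start these shares were 9.73%, 13.8% and 7.18%. In the 300-base windows the AP-1 motif TGANTCA was in 4.53%, 6.24% and 5.6% of the same sets. The motif ACACCTG of SNAI and ZEB factors was in 3.07%, 3.97% and 5.08%. Other motifs were searched and are not given here. A match is not a measured binding site.

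Signals to immune cells fell in the main. Of 52 genes on the list, 34 passed the low-count filter, of which 8 rose, 18 fell and 8 did not pass the test, with a median log2 fold change of -0.72. The count that rose was 8, and 5 without control replicate 3, without replicate 1 of every group or with library size alone. CXCL14, an epithelial chemokine, was at 34.7, 8.85 and 23.5 CPM in control and 5.43, 3.87 and 3.08 CPM with TGF-β1 (log2 fold change -2.55 with SE 0.24, adjusted p = 2.82e-06). CSF1, the growth factor of macrophages, fell from 186 ± 32.1 to 85.6 ± 13.8 CPM (log2 fold change -1.1 with SE 0.07, adjusted p = 1.02e-09), as did CCL2 (-1.52, SE 0.21), CXCL16 (-1.91, SE 0.18) and IL18 (-1.24, SE 0.14). Those that rose were IL11, at 4.85, 6.83 and 4.15 CPM in control and 142, 117 and 97.2 CPM with TGF-β1 (log2 fold change 4.51 with SE 0.11, adjusted p = 7.02e-18), its relative LIF (1.65, SE 0.12), and the hyaluronan-binding TNFAIP6 (4.81, SE 0.27). NFKBIA, the inhibitor of NF-κB that is also its target, fell (-0.98, SE 0.09). In the complement list 2 of 13 rose and 7 fell (median log2 fold change -0.39), with C3, the central component, at 298, 338 and 245 CPM in control and 181, 151 and 193 CPM with TGF-β1 (log2 fold change -0.72 with SE 0.15, adjusted p = 0.00657).

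Growth factor systems changed in both ligands and receptors. On the list of platelet-derived (PDGF), vascular endothelial (VEGF) and fibroblast growth factors and receptors 14 of 24 rose and 2 fell (median log2 fold change 0.77). PDGFRB, a receptor of mesenchymal cells, was at 42.1, 36.6 and 34.1 CPM in control and 199.6, 189.9 and 179 CPM with TGF-β1 (log2 fold change 2.34 with SE 0.06, adjusted p = 2.03e-17), FGF5 rose (2.74, SE 0.16) and VEGFC rose (1.3, SE 0.11). Epidermal growth factor ligands parted: EREG, epiregulin, fell, 30.5, 38.3 and 28.7 CPM in control and 2.63, 5.57 and 3.81 CPM with TGF-β1 (log2 fold change -2.98 with SE 0.14, adjusted p = 2.88e-13), AREG fell (-1.02, SE 0.14), and HBEGF rose (2.01, SE 0.25). Of genes that damp the ERK kinase cascade 5 of 22 rose and 10 fell (median log2 fold change -0.13). That is 22.7% and 45.5%, beside 24.6% higher and 25.5% lower over all genes. DUSP5, a nuclear ERK phosphatase, fell from 73.4 ± 11.9 to 17.3 ± 7.57 CPM and DUSP4 fell (-1.42, SE 0.08), while DUSP10, which acts on JNK and p38, rose (2.18, SE 0.10). In the insulin-like growth factor system 9 of 18 rose and 3 fell (median log2 fold change 0.62). IGFBP3, a carrier of these factors, rose from 105 ± 21 to 741 ± 142 CPM (log2 fold change 2.8 with SE 0.14, adjusted p = 9.8e-07), and IGFBP2 fell from 43.8 ± 3.17 to 8.7 ± 0.754 CPM (log2 fold change -2.38 with SE 0.11, adjusted p = 3.19e-13). With library size alone 7 members of the insulin-like growth factor list fell in place of 3, and 5 of the platelet-derived, vascular and fibroblast list in place of 2, of which 1 was called without the block or without control replicate 3. Among AP-1 and immediate-early genes JUNB (2.62, SE 0.08), JUN (1.72, SE 0.19) and EGR2 (3.54, SE 0.41) rose and FOSL1 (-0.65, SE 0.11) fell.

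Wnt, Notch and guidance genes changed in both directions. On the Wnt list 14 of 36 rose (38.9%) and 12 fell (33.3%), with a median log2 fold change of 0.08. Over all genes 24.6% rose and 25.5% fell, so calls in both directions are not particular to the list. WNT5B, a non-canonical ligand, was at 4.4, 2.95 and 3.48 CPM in control and 49.2, 34.8 and 37.7 CPM with TGF-β1 (log2 fold change 3.45 with SE 0.14, adjusted p = 1.74e-14), and NKD1 (3.93, SE 0.51) and NOTUM (2.99, SE 0.29), feedback inhibitors, rose. LRP5 (-1.24, SE 0.07), FZD7 (-1.21, SE 0.09) and RNF43 (-1.61, SE 0.24) fell. In the Notch pathway 9 of 18 rose and 5 fell (median log2 fold change 0.43), but 5 rose and 6 fell with library size alone and 4 rose and 3 fell without the block. HEYL, a Notch target (3.15, SE 0.19), and LFNG, a fringe glycosyltransferase (2.46, SE 0.19), rose and NOTCH1 fell (-0.99, SE 0.09). Of the guidance genes EPHB2, a receptor kinase of ephrins, rose from 162 ± 30 to 617 ± 19 CPM and SEMA3A, a secreted semaphorin, fell from 61.1 ± 9.74 to 11.4 ± 5.49 CPM.

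Lipid signals, redox genes and transporters held further large changes. SPHK1, which makes sphingosine 1-phosphate, rose from 39.9 ± 11.3 to 219 ± 60.5 CPM (log2 fold change 2.45 with SE 0.06, adjusted p = 9.96e-19), its receptor S1PR5 rose (2.64, SE 0.09), and SGPP2, a phosphatase that removes the lipid, fell from 44 ± 4.87 to 4.99 ± 1.39 CPM (log2 fold change -2.96 with SE 0.16, adjusted p = 1.27e-08). Of the oxidase and antioxidant genes 7 of 29 rose and 14 fell (median log2 fold change -0.26). These are 24.1% and 48.3%, beside 24.6% higher and 25.5% lower over all genes. The targets of NRF2 among them parted, with NQO1 (-1.05, SE 0.05) and TXNRD1 (-1.18, SE 0.07) down and HMOX1 up. Of genes of p53 and apoptosis 6 of 25 rose and 11 fell (median log2 fold change -0.03). These are 24.0% and 44.0%, so the share that rose is near that of all genes. FAS, a death receptor (-2.34, SE 0.24), and BCL2L11, the death promoter BIM (-1.32, SE 0.11), fell, as did the survival genes BCL2 (-1.14, SE 0.15), BCL2L1 (-0.90, SE 0.08) and BIRC3 (-3.1, SE 0.29). SCNN1A, the sodium channel subunit of absorbing epithelia, was at 56.9, 45.8 and 76.6 CPM in control and 4.03, 4.64 and 6.84 CPM with TGF-β1 (log2 fold change -3.49 with SE 0.11, adjusted p = 1.77e-16), and the water channel AQP5 fell (-3.67, SE 0.26). KCNG1, a potassium channel subunit, rose (3.96, SE 0.26).

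Outside the lists, the 25 largest rises by the naming rule held SHISAL1 (6.36, SE 0.32), ODAPH (6.34, SE 0.27), ANGPTL2, a secreted relative of angiopoietin (5.44, SE 0.50), PCDH9, a protocadherin (4.96, SE 0.28), SSC5D (4.87, SE 0.16), DHRS2 (4.57, SE 0.25), OLFM2 (4.55, SE 0.27) and the potassium channel gene KCNA7 (4.57, SE 0.28). CYP24A1, the hydroxylase that breaks down vitamin D, was at 0.758, 0.621 and 0.628 CPM in control and 25.4, 24.4 and 16.5 CPM with TGF-β1. It rose (log2 fold change 4.92 with SE 0.22, adjusted p = 1.15e-13). The 25 largest falls held the transcription factor gene MLXIPL, which senses glucose, at 18, 17.8 and 26 CPM in control and 0.35, 0.464 and 0.785 CPM with TGF-β1. MLXIPL fell (log2 fold change -5.16 with SE 0.26, adjusted p = 6.36e-12). CYP4X1 (-4.39, SE 0.21), STEAP4, a metalloreductase (-4.35, SE 0.25), SAMD5 (-4.34, SE 0.19), the adhesion receptor ADGRF1 (-4.82, SE 0.32), the transporter SLCO4A1 (-3.77, SE 0.30), CAVIN2 of caveolae (-3.61, SE 0.29), the peptide ligand APLN (-3.04, SE 0.30) and the polarity gene PARD6A (-3.21, SE 0.28) fell. ALDH3A1, an aldehyde dehydrogenase, fell from 18.9 ± 14.8 to 2.32 ± 1.76 CPM (-3.23, SE 0.25), and ABCA3, a lipid transporter of alveolar type 2 cells, fell from 11.4 ± 0.0926 to 1.36 ± 0.0619 CPM (-3.07, SE 0.24). On GRCh38.p14 ITGA11 lies on chromosome 15 from 68296532 to 68432163, IL11 on chromosome 19 from 55364382 to 55370463 and MLXIPL on chromosome 7 from 73593202 to 73647907, all protein-coding in RefSeq. Each count covers the whole gene.

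Long non-coding RNA genes were counted as well. Of 548 tested 62 rose (11.3%) and 92 fell (16.8%), beside 25.6% and 26.3% of 12469 protein-coding genes. LINC01583 rose, at 0.91, 1.55 and 0.725 CPM in control and 16.8, 11.6 and 15.4 CPM with TGF-β1 (log2 fold change 3.96 with SE 0.27, adjusted p = 3.58e-10), and LINC00312 rose (3.04, SE 0.30). DUBR fell, at 22.4, 37.4 and 24.1 CPM in control and 4.73, 11.3 and 5.61 CPM with TGF-β1 (log2 fold change -2.0 with SE 0.12, adjusted p = 2.03e-11), and MIR99AHG, the host gene of a microRNA cluster, fell (-1.63, SE 0.24). The library kit does not mark strand, so reads of a gene that overlaps another on the opposite strand, such as PSMB8-AS1 (-1.28, SE 0.36) beside PSMB8, cannot be told apart from it.

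Some genes were measured tightly enough to bound a change. For 2286 genes (17.0%) the 95% interval of the fold change lay within 1.2-fold either way, 117 of them past the test. Of 27 genes in common use as references for PCR, 12 were within that bound and 11 of these did not pass the test, among them POLR2A (log2 fold change -0.04, 95% interval -0.15 to 0.07, adjusted p = 0.533) and RAB7A (log2 fold change 0.05, 95% interval -0.05 to 0.15, adjusted p = 0.412). With library size alone as the scale all of these intervals shift down with the median gene. On that scale POLR2A (-0.25, adjusted p = 0.000467) and RAB7A (-0.16, adjusted p = 0.00789) passed the test as falls. Others in common use changed: ACTB, cytoplasmic actin, rose from 6282 ± 368 to 8639 ± 708 CPM (log2 fold change 0.46 with SE 0.06, adjusted p = 1.53e-06), and B2M fell as given above. On that list 8 of 27 rose and 8 fell (median log2 fold change 0.05), 29.6% each way beside 24.6% higher and 25.5% lower over all genes, but 3 rose and 16 fell with library size alone and 4 rose and 4 fell without the block.

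The same agent was also given before dexamethasone. With dexamethasone in both groups 3229 genes rose with TGF-β1 (24.0%) and 3498 fell (26.0%). Of the 3308 genes that rose without dexamethasone 2537 also rose with it, which is 76.7% of the first list and 78.6% of the second. Of the 3433 that fell 2617 also fell (76.2% and 74.8%). Calls in the opposite direction numbered 37 and 44. A test of the difference between the effects passed for 644 genes (4.78%), 223 of them among the genes that rose and 269 among those that fell.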

How the data were processed

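Poly(A) RNA libraries were made with a kit that does not mark strand. The deposited table holds whole-number counts per gene; per the submitters' processing notes the authors used hg38 and featureCounts, with no version stated, while the aligner, annotation and strand setting were not given in the sources used here. Of its 18 count columns 12 matched a labelled library, and 6 columns without a label were not used. Gene identifiers were matched to RefSeq (27745 of 28395).

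Counts were fitted with edgeR 4.0.16 in R 4.3.3 (quasi-likelihood, TMM, filterByExpr with a minimum count of 10, group and replicate number, 12 libraries, 6 residual degrees of freedom). The comparison was defined with the replicate number as a block. Same-numbered control and TGF-β1 libraries deviated together (correlations 0.259, 0.433 and 0.405, against -0.357 to 0.042 for different numbers). Deviations were taken from each group's own mean, so positive values for same numbers in themselves push those for different numbers below 0. Limma-voom (limma 3.58.1) and DESeq2 1.42.0 were alternatives. On simulated counts for this comparison, over 13238 genes, 94% of genes changed by a log2 of 1 and 34% of those changed by 0.3 were recovered. Only 50 genes were changed at each of these sizes, in both directions, and all genes had the same dispersion. In the data 50.0% of genes were called, so these shares need not hold there. Named genes are the 25 largest rises and 25 largest falls, called, with a RefSeq symbol, a log2 CPM averaging 1 or more, groups that did not overlap and 1 sign in the 3 pairs. List members were added (the largest changes, those against the list and those central to it), as were up to 10 long non-coding RNA genes each way. The members and lists were chosen with earlier results of these data known. Promoters were RefSeq windows of GRCh38.p14, using the first listed start where a gene had several (5191 genes). Replicates are separate samples by the labels, which do not say what separates them, so p-values measure the spread between these libraries. Some named genes are not reported here.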

Additional observations from a re-analysis of the deposited data

Results flagged for a closer look

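A test of the difference between the effect of TGF-β1 with dexamethasone in both groups and its effect without dexamethasone passed for 644 genes, 4.78% of those tested (edgeR's quasi-likelihood test of the interaction). Of the genes named as the largest rises and falls, 8 that passed are given here.

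PCDH9 and SNAI1 rose less with dexamethasone. The log2 fold change of PCDH9 was 4.96 without and 1.72 with dexamethasone, a difference of -3.23 (adjusted p = 0.00223), and that of SNAI1 was 4.91 and 3.63, a difference of -1.28 (adjusted p = 0.00015). PMEPA1 rose more with dexamethasone, by 5.39 against 4.82, a difference of 0.58 (adjusted p = 0.00244).

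For the other 5, which fell without dexamethasone, the log2 fold change was nearer 0 with it. SPRY1, an inhibitor of growth factor signals, went from -3.47 to -0.78, which did not pass the test with dexamethasone (adjusted p = 0.106), a difference of 2.69 (adjusted p = 0.00438). The other genes fell with dexamethasone too. SCNN1A went from -3.49 to -1.8, a difference of 1.69 (adjusted p = 1.27e-07). For SAMD5 the values were -4.34 and -2.73, a difference of 1.61 (adjusted p = 0.00755). For ELF3 they were -3.17 and -1.81, a difference of 1.36 (adjusted p = 0.00212). For OAS1 they were -4.15 and -2.95, a difference of 1.2 (adjusted p = 0.0384).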

How the results depend on the processing

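Without the replicate block 2186 genes rose and 2230 fell, and 4413 of these 4416 calls were also made with the block (65.5% of the 6741). The pairing of replicate numbers lowered the common biological coefficient of variation from 0.122 to 0.0577. With library size alone as the scale 1746 rose and 6200 fell. Leaving out a library or a replicate number gave 2352 to 3472 genes that rose and 2470 to 3524 that fell, the fewest without replicate 3 of every group, which holds the deepest libraries. Rises of at least 2-fold and falls of at least 2-fold stayed within 1.5 times of 729 and 801 under the alternatives run. RLE normalisation gave 3346 and 3407, DESeq2 2826 and 2847, limma-voom 3159 and 3217, and the fit of the 6 libraries alone 3036 and 3188.

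Among named genes the calls of ACTA2, CCND1, CCND2, COL6A1, COL6A2, STAT2 and TGFBR1 were lost without the block. Without replicate 1 of every group the calls of ATP5F1B, C3, CDKN1A, ELN, GREM1, MMP2, NOG and PSMB8-AS1 were lost, and without replicate 3 of every group those of COL6A1, ELN, GREM1, IFI44L, LOXL4 and NRROS. That of ACTA2 was lost without any 1 replicate number. Genes near 0 that did not pass the test changed sign. With library size alone the log2 fold change was -0.19 for IRF9, -0.14 for LAMA3 and -0.16 for RAB7A. On that scale RAB7A, DSP, ITGB4, POLR2A and ZEB1 passed the test as falls, and so did COL5A3 and KRT8. Leaving out libraries or replicate numbers moved DSP over -0.1 to 0.04 (0.05 without replicate 3 of every group), ITGA6 over -0.2 to 0.02 (0.05), LAMA3 over -0.05 to 0.14 (-0.09 without replicate 1 and 0.17 without replicate 2 of every group, the latter past the test) and POLR2A over -0.1 to 0.01. The cause was not tested. In replicates 1 and 2 the depth is low, and genes of a few CPM rest mainly on replicate 3.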
